A study of Mus musculus with 1479 samples.

Results

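The prostaglandin genes of the mouse urinary bladder stroma were described here through 10 members of 46517 gene rows. They were taken by name, as genes of 1 pathway, with earlier results of these data known. Their symbols were matched to the Ensembl identifiers of the count table through GENCODE M21. The 5 synthesis genes were Ptgs1, Ptgs2, Ptges, Ptgis and Ptgds, and the 5 receptor genes were Ptger2, Ptger3, Ptger4, Ptgfr and Ptgir. All 10 had a row, and 8 passed the low-count filter in the comparisons of clusters 5 and 10. Ptgds, with reads in 19 cells, and Ptger3, with 617 reads in 25 cells, did not pass.

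Prostanoids are short-range lipid signals. Phospholipase releases arachidonic acid from membranes, a cyclooxygenase (the constitutive Ptgs1 or the inducible Ptgs2) turns it into prostaglandin H2, and a terminal synthase makes the final product: Ptges prostaglandin E2, Ptgis prostacyclin and Ptgds prostaglandin D2. The products act on nearby cells through G-protein-coupled receptors, of which Ptger2 and Ptger4 raise cyclic AMP, Ptger3 mainly lowers it, Ptgfr binds prostaglandin F2-alpha and raises calcium, and Ptgir binds prostacyclin. In the bladder, prostaglandins are known as local modulators of detrusor tone and of sensory nerve activity.

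The data were Smart-seq2 read counts of 1479 single cells of adult male mice on a C57Bl6/J background, 10 to 20 weeks old, without treatment. Cells came from 4 reporter lines, Acta2GFP, Cspg4dsRED, PdgfraGFP and PdgfrbGFP (810 cells, the most of any line), and from C57BL6 mice without a reporter. They were sorted as reporter-positive or PDGF receptor-positive cells without the endothelial antigen CD31, so that urothelium, endothelium, nerve and most leukocytes were outside the gate, and a reporter under the Pdgfrb, Pdgfra, Cspg4 or Acta2 promoter selects the cells that use that promoter. Only the Acta2GFP tissue was dissociated with elastase added, and that difference cannot be told apart from the line. The labels assign every cell to a cluster, 1 to 11, but name no animal. The line was therefore the unit of replication, on the assumption that lines were separate mice, and p-values measure the spread between lines, which may in part be technical. Because the clusters were made from the same counts, a test between clusters says how far a difference repeated over lines and is no independent evidence that the clusters differ.

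Cluster 10 held the mural cells and cluster 5 (76 cells) the sub-epithelial fibroblasts, by the study's description. The summed level of 7 mural markers was 9534 ± 1468 (SD, n = 4 lines) in cluster 10, against 517.4 ± 181.3 (SD, n = 4) in cluster 5 and 78.2 ± 30.2 (SD, n = 5) in the other fibroblast clusters, and that of 4 sub-epithelial markers was 1815 ± 876.7 (SD, n = 4) in cluster 5 against 87.2 in the other fibroblast clusters. The sub-epithelial markers (Tnc, Bmp5, Bmp7 and Cxcl14) were named by the study from these same cells, so their sum is no independent evidence of the label. To give a level, the reads of a gene in each cell were scaled to 500000 endogenous reads. The scaled values were averaged within a line, and the line averages within a cluster, where a line had at least 3 cells there. The other 9 clusters were fibroblasts of the labels' numbering. Some leaned on 1 line: 85 of 91 cells of cluster 9 were Cspg4dsRED and 43 of 51 of cluster 11 were Acta2GFP. Endogenous reads per cell ran from 48455 to 1433402 with a median of 212483, and the line medians from 117026 in PdgfraGFP to 292807 in C57BL6. Smart-seq2 reads carry no molecular identifiers, so the intervals below cover counting error only.

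The promoter windows of Ptgs1, Ptgs2 and Ptger2 are shown because cluster 5 held the highest mean level of Ptgs1 and Ptger2 and the lowest of Ptgs2. They run from 250 bases before to 50 bases after the start annotated in RefSeq (GRCm38.p6, plus strand). For Ptger2 the window ends at 44988160, before the GENCODE M21 gene start at 44988195, so its positions count from a different start. Capitals mark the single TGACG, the core of a cyclic AMP response element, read here on the opposite strand in Ptgs2.
Ptgs1, chr2:36230176-36230475: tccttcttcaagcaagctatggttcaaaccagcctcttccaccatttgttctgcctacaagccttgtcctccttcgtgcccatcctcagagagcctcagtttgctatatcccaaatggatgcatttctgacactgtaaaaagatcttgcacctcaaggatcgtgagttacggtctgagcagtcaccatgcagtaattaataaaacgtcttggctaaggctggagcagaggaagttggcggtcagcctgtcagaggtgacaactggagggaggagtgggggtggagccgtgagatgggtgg
Ptgs2, chr1:150099781-150100080: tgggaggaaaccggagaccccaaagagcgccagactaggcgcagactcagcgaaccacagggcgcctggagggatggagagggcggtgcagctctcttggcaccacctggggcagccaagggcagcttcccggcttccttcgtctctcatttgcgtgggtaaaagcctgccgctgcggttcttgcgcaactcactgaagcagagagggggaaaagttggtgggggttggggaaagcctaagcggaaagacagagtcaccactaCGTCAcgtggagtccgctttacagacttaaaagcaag
Ptger2, chr14:44987861-44988160: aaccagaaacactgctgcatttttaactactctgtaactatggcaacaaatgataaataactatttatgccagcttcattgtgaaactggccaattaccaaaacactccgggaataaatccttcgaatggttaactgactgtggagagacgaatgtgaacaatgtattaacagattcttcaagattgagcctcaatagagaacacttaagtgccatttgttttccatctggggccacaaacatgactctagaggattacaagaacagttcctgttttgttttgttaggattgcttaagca
Letters were searched on both strands, with the base before the start as -1 and the start as 1. TGACG was present in Ptgs2 at position 14, overlapping an E-box (CANNTG) at 17, and was in 20.8% of 32851 mouse promoters of this length. TATAAA (13.6% of promoters) was in none of the 9 member promoters that the table held (no window for Ptgis). The GC box GGGCGG (35.7%) was at -170 in Ptgs2, and CCAAT (37.4%) at -160 in Ptger2. E-boxes (72.3%) were at -208, -139 and 9 in Ptgs1, at -147, -103 and 17 in Ptgs2 and at -204, -37 and -26 in Ptger2. A match of letters describes the window and says nothing on whether a factor binds there.

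Of the cyclooxygenases, Ptgs1 (ENSMUSG00000047250, chr2:36230426-36252272, plus strand) was concentrated in the sub-epithelial cluster 5 and, at a lower level, in cluster 7. Ptgs2 (ENSMUSG00000032487, chr1:150100031-150108227, plus strand) was nearly missing from cluster 5 and present in most other fibroblast clusters. In cluster 5 the Ptgs1 level was 87.9 in C57BL6, 23.3 in the 3 cells of Cspg4dsRED, 115.1 in PdgfraGFP and highest in PdgfrbGFP, or 90.6 ± 48.99 (SD, n = 4). All 4 lines were above the mean of the other fibroblast clusters, 6.18 ± 5.03 (SD, n = 5). PdgfrbGFP cells came from 3 plates, on which the cluster 5 level was 84.9, 253.7 and 126.4, so the gene was high on each. In cluster 7 the Ptgs1 level was 31.02 in PdgfrbGFP, 4.36 in PdgfraGFP, 18.9 in C57BL6, 0 in Acta2GFP and 98.9 in Cspg4dsRED, or 30.6 ± 40.1 (SD, n = 5). The Cspg4dsRED value rested on 2 of 11 cells (the mean was 13.6 without that line), and the spreads of clusters 5 and 7 overlapped. Every other cluster averaged at most 4.85. The study already lists Ptgs1 among the genes enriched in sub-epithelial fibroblasts of both colon and bladder.

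The Ptgs2 level ran the other way. It was 4.62 in PdgfrbGFP, 0.261 in PdgfraGFP, 0.287 in C57BL6 and 0 in Cspg4dsRED of cluster 5, or 1.29 ± 2.22 (SD, n = 4), the lowest of the 11 clusters. In the other fibroblast clusters together it was 40.98 ± 20.2 (SD, n = 5). Its highest mean was in cluster 11, 79.7 ± 24.5 (SD, n = 3), followed by cluster 8 at 68.96 ± 91.9 (SD, n = 5) and cluster 6 at 68.2 ± 47.4 (SD, n = 5). Within cluster 6 the level was 103.9 in PdgfrbGFP, 107.2 in PdgfraGFP, 92.6 in C57BL6, 37.1 in Acta2GFP and 0 in the 3 cells of Cspg4dsRED. Of the PdgfraGFP value 86.6% came from 1 cell (14.9 without it), and of the Acta2GFP value 99% (0.448 without it). The cluster 8 mean rested on the 11 Acta2GFP cells and was 29.1 ± 25.9 (SD, n = 4) without that line. No neighbours in the order of clusters differed beyond their spread for Ptgs2, and lines of 1 cluster ranged from 0 to 228.3 in cluster 8.

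**Figure D1:**
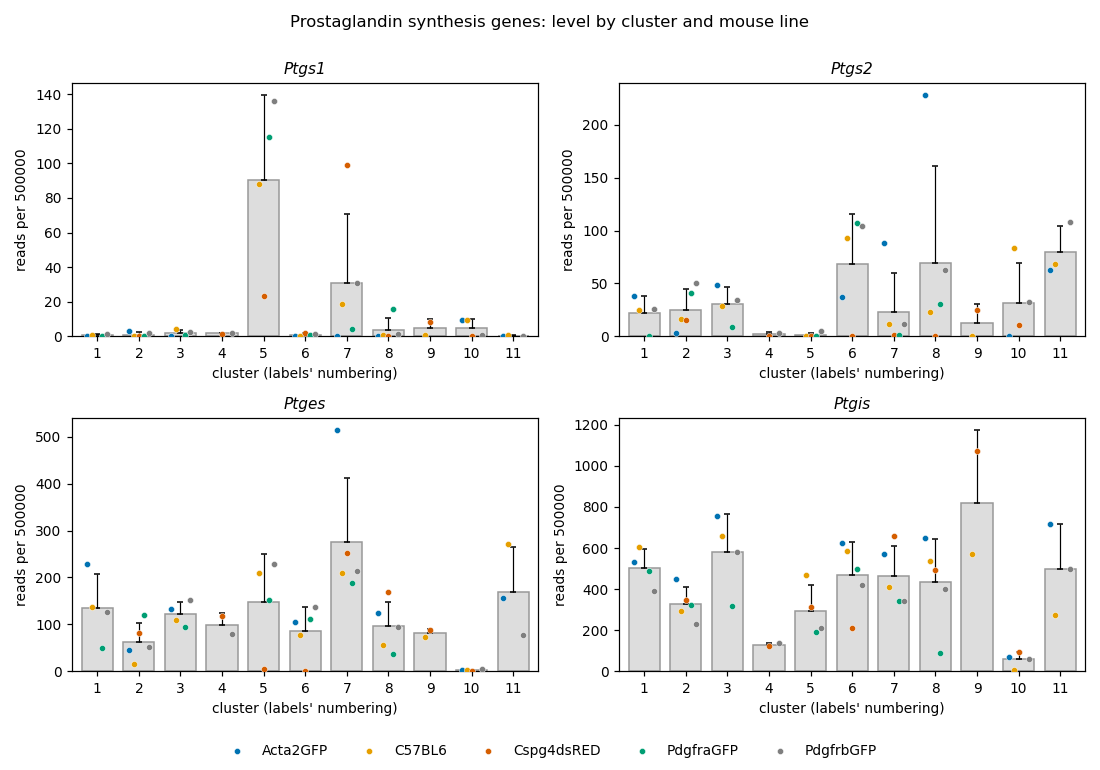
Levels of the prostaglandin synthesis genes by cluster (horizontal axis, the labels' numbering) in reads per 500000 endogenous reads (vertical axis, linear, a scale of its own for each gene). Bars are means over lines with at least 3 cells, whiskers 1 SD upward and points the lines. Ptgs1 stands highest in cluster 5 at 90.6, Ptges in cluster 7 at 275.9, and Ptges and Ptgis lowest in cluster 10 at 2.03 and 57.97.

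The same division was seen cell by cell. Each cell was thinned to 50000 reads (1473 cells, 6 being too shallow), and a gene was counted at 3 or more reads. Ptgs1 was then found in 41 of 76 cells of cluster 5 (53.9%, 95% Clopper-Pearson interval 42.1 to 65.5), in 12.7% of cluster 7 (29 cells, 8.69 to 17.8) and in 43 of 1272 cells of all fibroblast clusters outside cluster 5, cluster 7 included (3.38%, 2.46 to 4.53). Mural cluster 10 had 1 such cell (0.80%), and cluster 6 had 0, which allows a share of up to 1.60% at that cutoff (35.6% of cluster 6 had 1 unthinned read or more). The share in cluster 5 was 23 of 36 cells in PdgfrbGFP, 9 of 15 in C57BL6, 8 of 22 in PdgfraGFP and 1 of 3 in Cspg4dsRED. Ptgs2 was found in 1 of 76 cells of cluster 5 (1.32%, 0.0333 to 7.11), in 33.7% of cluster 6 (63 cells) and in 20.8% of the 1272 cells of the other fibroblast clusters (18.6 to 23.2). At 1 read or more, Ptgs1 was found in 61.8% of cluster 5 and 7.94% of the other fibroblasts. At 1 unthinned read, Ptgs2 was found in cluster 5 in 23 of 36 cells of PdgfrbGFP, 3 of 15 of C57BL6, 1 of 22 of PdgfraGFP and 0 of 3 of Cspg4dsRED. Median depths before thinning were 256725 reads in cluster 5, 231367 in cluster 7 and 128369 in cluster 10.

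Cells with both cyclooxygenases were few. Cluster 5 had 41 cells with Ptgs1 alone, 1 with Ptgs2 alone, 0 with both and 34 with neither. With Ptgs2 in 1 cell only, the overlap in cluster 5 could not be judged. Cluster 7 had 26 with Ptgs1 alone, 16 with Ptgs2 alone and 3 with both. Ptgs2 was thus in 10.3% of its Ptgs1 cells, against 8.33% of the cluster. The fibroblast clusters outside cluster 5 had 43 cells with Ptgs1, of which 6 also had Ptgs2 (13.95%, against 20.8% of all their cells), and 970 cells with neither. Among the 41 Ptgs1 cells of cluster 5, Tnc (tenascin-C, the sub-epithelial marker) was present in 37 (90.2%, against 82.9% of all cells of the cluster), Ptges in 32 (78.05%, against 65.8%) and Ptgis in 35 (85.4%, against 72.4%). Ptgs1 cells of cluster 7 had Ptges in 24 of 29 (82.8%, against 70.6% of that cluster) and Tnc in 0 of 29 (against 0.439%). Most Ptgs1 cells of both clusters thus had Ptges, as did most cells of each cluster, and only those of cluster 5 had Tnc.

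**Figure D2:**
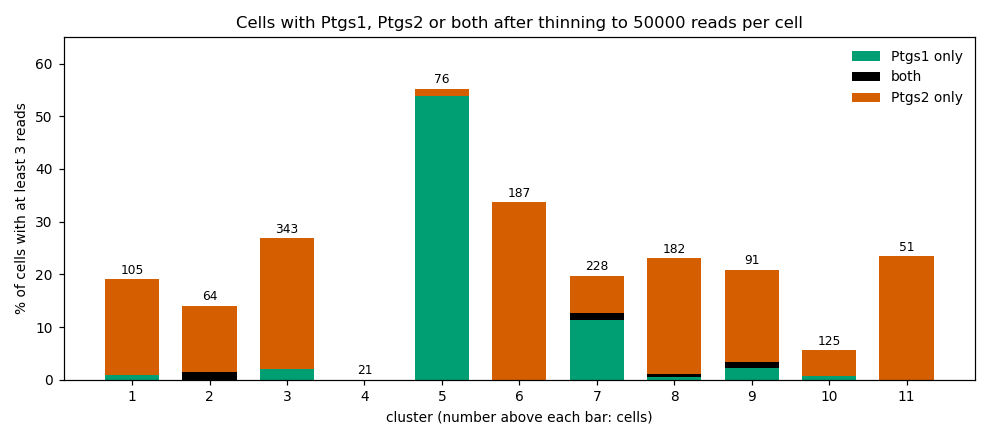
Percentage of cells (vertical axis, linear) of each cluster (horizontal axis) with at least 3 reads of Ptgs1 only, Ptgs2 only or both, after thinning to 50000 reads a cell; the number above a bar is its cells. Cluster 5 is almost all Ptgs1 (53.9% of cells), cluster 6 all Ptgs2 (33.7%), and cluster 4 has neither in 21 cells.

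Reads that stray between wells of a plate were checked in cells outside clusters 5 and 10. Unthinned, at least 1 Ptgs1 read was found in 11.5% of 495 cells with no cluster 5 cell in their plate row or column, and in 29.8% of 783 with 1 or more. For Tnc the shares were 1.01% and 39.3%. The 2 sets differed in depth, with medians of 172350 and 256614 reads, and at 10 or more reads the Ptgs1 shares were 2.22% and 4.60%. The part of such reads in the low Ptgs1 shares outside cluster 5 was not tested. Shares are given at 3 thinned reads or more except where another cutoff is stated, and those at 1 read are the more open to such reads.

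Ptgs2 is also an immediate-early gene, transcribed within minutes to hours of a stimulus, such as tissue dissociation, so it was set beside 22 immediate-early genes (Fos, Egr1, Atf3 and others). Their summed level was lowest in cluster 5 at 2224 ± 1004 (SD, n = 4) and highest in cluster 10 at 17740 ± 7032 (SD, n = 4), with the other fibroblast clusters at 7739 ± 1201 (SD, n = 5). Low Ptgs2 and a low immediate-early sum thus coincided in cluster 5. Cluster 7, with Ptgs2 at 22.99 ± 36.9 (SD, n = 5; 6.67 without Acta2GFP), had the next lowest sum, 4181 ± 929.3 (SD, n = 5). Low values of both did not coincide in cluster 4, where the sum was 12060 and Ptgs2 1.86 ± 1.77 (SD, n = 2), nor across the lines of cluster 10. There the sum was 24290 in Acta2GFP with Ptgs2 at 0.437 (1 of 12 cells with a read), 19813 in Cspg4dsRED with 10.8 (2 of 65 cells), 19085 in PdgfrbGFP with 32.2 (21 of 45) and 7773 in C57BL6 with 83.8 (1 of 3). The part of the dissociation response in the Ptgs2 level was not tested.

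**Figure D3:**
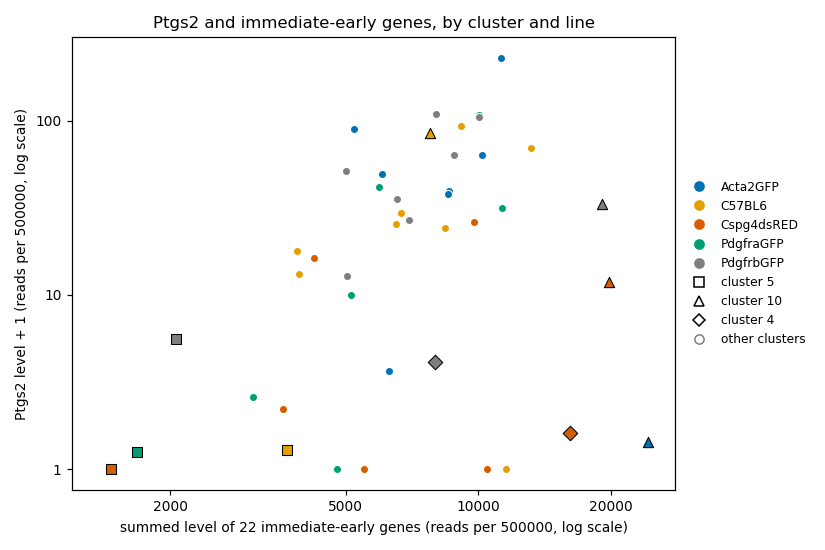
Ptgs2 level plus 1 (vertical axis, log scale) against the summed level of 22 immediate-early genes (horizontal axis, log scale), both in reads per 500000, with 1 point for each cluster and line with at least 3 cells. Cluster 5 lies at the lower left (sums averaging 2224, Ptgs2 at most 4.62), while 3 of the 4 points of cluster 10 have the highest sums, with Ptgs2 at 0.437, 10.8 and 32.2.

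Ptges (ENSMUSG00000050737, chr2:30889471-30929863, minus strand), the inducible synthase of prostaglandin E2, was found in all fibroblast clusters and was close to absent from mural cells. Its level in cluster 7 was 214.5 in PdgfrbGFP, 188.6 in PdgfraGFP, 210.4 in C57BL6, 514.5 in Acta2GFP and 251.3 in Cspg4dsRED, or 275.9 ± 135.3 (SD, n = 5), the highest mean. Cluster 11 came next, then clusters 5 and 1 at 148.5 and 134.9, and no neighbours differed beyond their spread down to cluster 2 at 63.03 ± 39.6 (SD, n = 5). Cluster 5 was uneven, with 209.9 in C57BL6, 4.19 in the 3 cells of Cspg4dsRED, 150.9 in PdgfraGFP and 229.1 in PdgfrbGFP. Mural cluster 10 had the lowest mean, at 2.14 in Acta2GFP, 1.75 in C57BL6, 0.192 in Cspg4dsRED and 4.05 in PdgfrbGFP. Every fibroblast line with at least 3 cells in a cluster was above these values except Cspg4dsRED in cluster 6, at 1.01 in 3 cells. At 3 thinned reads, Ptges was in 70.6% of cells of cluster 7, 65.8% of cluster 5 and 2 cells of cluster 10 (1.60%, 0.194 to 5.66).

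Ptgis (ENSMUSG00000017969, chr2:167191805-167240604, minus strand), prostacyclin synthase, was the member with most reads, 342193 in 1413 cells. Nearly every fibroblast carried it: 91.5% at 3 thinned reads, against 26.4% of cluster 10. Its level was highest in cluster 9 at 820.5 ± 354.6 (SD, n = 2) and lay between 327.9 and 578.9 in clusters 1, 2, 3, 6, 7, 8 and 11. Cluster 5, below these on average, had 208.2 in PdgfrbGFP, 193.1 in PdgfraGFP, 466.5 in C57BL6 and 312.2 in Cspg4dsRED. Clusters 4 and 10 had the lowest means. Cluster 4 had 124.9 and 135.2 in its 2 lines, and cluster 10 had 71.1 in Acta2GFP, 6.90 in C57BL6, 95.96 in Cspg4dsRED and 57.9 in PdgfrbGFP. In the clusters above, 1 line lay as low, PdgfraGFP in cluster 8 at 89.9. Per kilobase of exon, the scale on which genes can be compared, the highest cluster means were 319.6 for Ptgis, 70.2 for Ptges, 23.3 for Ptgs1 and 17.4 for Ptgs2 (reads per 500000 per kilobase). Ptgds (ENSMUSG00000015090, chr2:25466709-25470046, minus strand) did not exceed a mean level of 1.01 in any cluster, and 97.3% of its reads lay in 10 cells.

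The receptors were sparser than Ptges and Ptgis, and at 3 thinned reads no receptor was present in most cells of a cluster. Ptger4 (ENSMUSG00000039942, chr15:5206661-5244187, minus strand), the receptor found most widely (823 cells at 1 read or more, unthinned), was highest in cluster 3, the largest cluster, at 45.6 in Acta2GFP, 53.2 in C57BL6, 179.8 in PdgfraGFP and 68.9 in PdgfrbGFP, a mean of 86.9 that was 55.9 without PdgfraGFP. In cluster 5 it was 12.3 in PdgfrbGFP, 4.51 in PdgfraGFP, 12.1 in C57BL6 and 0 in Cspg4dsRED, the lowest mean of the 11 (7.21 ± 6.01, SD, n = 4), and the lines of clusters 3 and 5 did not overlap. At 3 thinned reads the shares were 41.7% of cells in cluster 3 and 7.89% in cluster 5, and at 1 unthinned read 71.01% and 46.1%. Ptger4 overlaps Ttc33 on the opposite strand (20287 reads), and the sources used here do not state whether counting used strand.

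Ptger2 (ENSMUSG00000037759, chr14:44988195-45003820, plus strand), the other cyclic AMP-raising receptor for prostaglandin E2, was highest in cluster 5, where Ptger4 was lowest. Its level there was 26.5 in PdgfrbGFP, 8.57 in PdgfraGFP, 147.6 in C57BL6 and 16.3 in Cspg4dsRED, or 49.7 ± 65.6 (SD, n = 4). The C57BL6 value came for 86.1% from 1 cell, and without that line the mean was 17.1 ± 9.01 (SD, n = 3). All 4 lines of cluster 5 exceeded the mean of the other fibroblast clusters, 1.89 ± 1.69 (SD, n = 5). The shares were 15 of 76 cells in cluster 5 (19.7%, 11.5 to 30.5), 7.89% of cluster 7 (18 cells, 4.75 to 12.2), 28 of 1272 in all fibroblast clusters outside cluster 5, again with cluster 7 (2.20%, 1.47 to 3.17) and 3 cells of cluster 10 (2.40%). Of the 15 Ptger2 cells of cluster 5, 14 had Tnc and 6 were among the 41 Ptgs1 cells, so that 14.6% of the Ptgs1 cells had Ptger2, against 19.7% of the whole cluster.

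Ptgfr (ENSMUSG00000028036, chr3:151796502-151837630, minus strand) was highest in clusters 7 and 8. In cluster 7 the level was 38.7 in PdgfrbGFP, 53.5 in PdgfraGFP, 27.95 in C57BL6, 54.8 in Acta2GFP and 0 in Cspg4dsRED, or 35 ± 22.5 (SD, n = 5). Cluster 8 averaged 26.8 ± 32.9 (SD, n = 5), or 13.3 without Acta2GFP, and their spreads overlapped. At 3 thinned reads Ptgfr was in 21.1% of cluster 7 and 15.9% of cluster 8, and in 0 of 76 cells of cluster 5, which allows up to 3.95%, and in no cell of cluster 10, which allows up to 2.40%, at that cutoff. At 1 unthinned read it was in 43.7% of cluster 7, 21.1% of cluster 5 and 6.40% of cluster 10.

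Ptgir (ENSMUSG00000043017, chr7:16906490-16910905, plus strand), the prostacyclin receptor, had its highest mean level in mural cells only with the 3 C57BL6 cells counted. In cluster 10 it was 28.97 in Acta2GFP, 307.9 in the 3 cells of C57BL6, 44.4 in Cspg4dsRED and 54.9 in PdgfrbGFP, or a mean of 109.1 (n = 4), and 42.8 ± 13.1 (SD, n = 3) without C57BL6, below clusters 11 and 4. Clusters 11 (57.03 ± 21.8, SD, n = 3), 4 (105.2 and 4.26 in 2 lines) and 6 (35.2 ± 30, SD, n = 5) followed, all within the spread. At 3 thinned reads, cells with Ptgir were 14.4% of cluster 10, 24.6% of cluster 6 and 0 of 76 in cluster 5 (23.7% at 1 unthinned read), which also had the lowest level (0.398 ± 0.505, SD, n = 4). Ptger3 (ENSMUSG00000040016, chr3:157566892-157645888, plus strand) also had its highest mean in mural cluster 10, 4.22 ± 8.36 (SD, n = 4). That mean came almost wholly from 1 Acta2GFP cell, and 97.6% of the 617 Ptger3 reads lay in 10 cells.

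**Figure D4:**
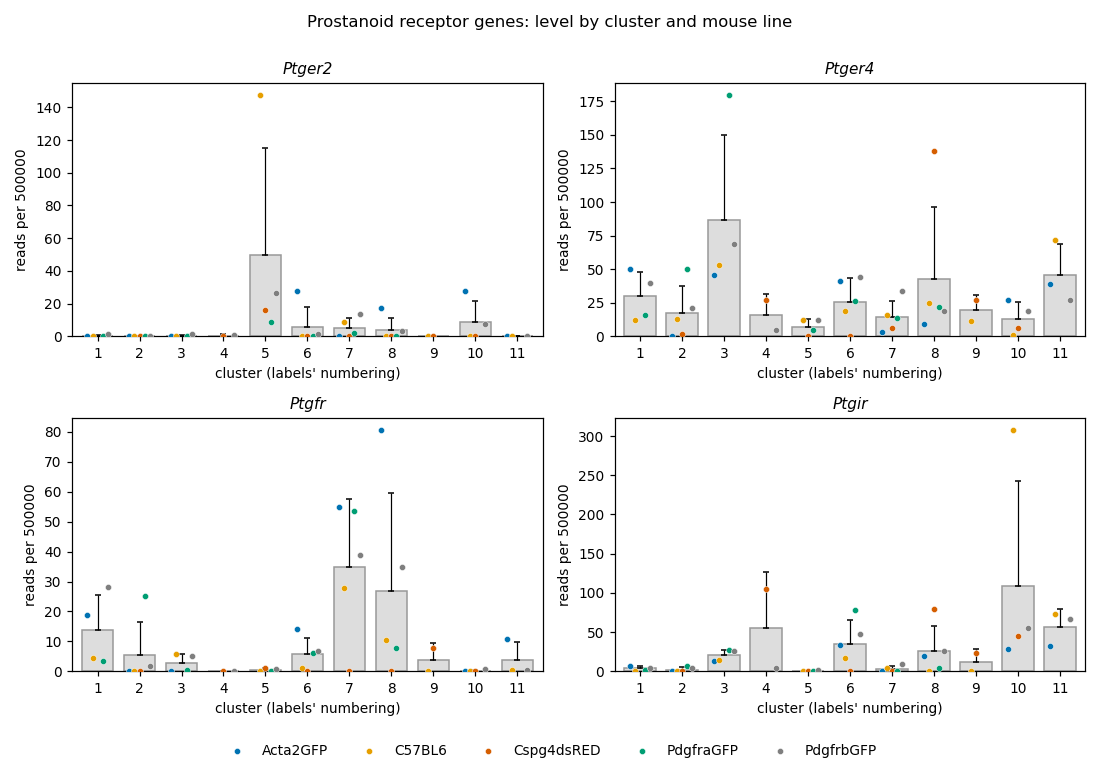
Levels of the 4 receptor genes with enough reads, by cluster (horizontal axis) in reads per 500000 endogenous reads (vertical axis, linear, a scale of its own for each gene). Bars are means over lines with at least 3 cells, whiskers 1 SD upward and points the lines. Ptger2 stands highest in cluster 5 (49.7, drawn up by the C57BL6 point at 147.6), Ptger4 in cluster 3 (86.9), Ptgfr in cluster 7 (35) and Ptgir in cluster 10 (109.1, with C57BL6 at 307.9).

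How far these differences repeated over lines was first tested for mural cells against all fibroblasts, with counts summed by line (4 lines, against 1207 fibroblasts). In mural cells 3 of the 8 members tested were lower and none was higher. Ptges was lower by a log2 fold change of -6.54 ± 1.00 (SE; edgeR quasi-likelihood, adjusted p = 2.67e-04), with 97727 reads in the fibroblasts of the 4 lines and the direction in 4 of 4 lines. Ptgis was lower at -3.67 ± 0.57 (SE, edgeR adjusted p = 2.83e-04). Ptgfr was lower at -7.22 ± 1.92 (SE, edgeR adjusted p = 0.0282), with 13 reads against 11356. The background of this comparison, at an adjusted p under 0.05 and a log2 fold change of at least 2, was 6.06% of 13861 genes lower and 2.28% higher, and the median gene was at -0.81. Ptgfr lost its call without any 1 of the 4 lines, with adjusted p of 0.103 without Acta2GFP, 0.0661 without C57BL6, 0.153 without Cspg4dsRED and 0.0595 without PdgfrbGFP, while Ptges and Ptgis kept theirs in each case. Ptgfr also lost it with the median gene set to 0 (adjusted p = 0.0517).

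The other 5 members did not pass. Ptgir was higher in each of 4 lines, at 1.69 ± 0.90 (SE, edgeR adjusted p = 0.326), and Ptger4 at -2.14 ± 1.12 (adjusted p = 0.311), lower in 4 of 4. The edgeR fit to plate sums called Ptger4 lower (-2.50, adjusted p = 0.0478), with 12.6% of all genes called. Ptgs1 at -2.11 ± 2.45, Ptgs2 at -1.40 ± 1.36 and Ptger2 at -0.66 ± 2.10 had errors as large as or close to their values. Endothelial markers summed to 80.4 in cluster 10 (12.1 to 228.2 over lines). The markers listed for detrusor smooth muscle (Actg2, Myocd, Des and Synm) summed to 1422 ± 713.9 (SD, n = 4; 538.9 to 2284 over lines), against 57.01 in fibroblasts outside cluster 5. Des is also on the study's short list of mural cell markers, so this sum cannot tell detrusor cells from mural cells. The part of endothelial or detrusor cells in the mural values was not tested. Of 21 immediate-early genes tested, 17 were above 0 in cluster 10 (median 0.81, against -0.81 for all genes). By edgeR 4 were called higher, where 2.28% of all genes were. Their part in the mural values was not tested. As counts were summed over cells, fewer cells with a transcript and less transcript in each cell cannot be told apart in these folds.

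Sub-epithelial cluster 5 was then tested against the other fibroblast clusters (4 lines, 76 against 1161 cells). By edgeR on sums per line no member passed over all genes. The study's listing of Ptgs1 as enriched in these fibroblasts rests on a comparison of groups of cells, whereas the units here are lines. The background was 0.343% of 13988 genes called higher and 0.536% lower. Unadjusted p was under 0.05 for 7 of 8 members and for 10.4% of all genes. DESeq2 called 6 members and 9.64% of all genes. The edgeR fit had the median gene at -0.69. Ptgs1 was at 3.78 ± 1.10 (SE, edgeR p = 0.00612, adjusted p = 0.156) and higher in 4 of 4 lines. In CPM, the reads of the summed cells scaled to a common total, Ptgs1 was 190.9 in cluster 5 and 10.1 in the rest in C57BL6, 37.99 and 36.7 in Cspg4dsRED, 329.6 and 6.76 in PdgfraGFP and 257.3 and 14.2 in PdgfrbGFP. Without Cspg4dsRED, whose 3 cells carry the smallest difference, Ptgs1 was called at 4.69 (adjusted p = 0.0107). Ptger2 was at 4.77 ± 1.57 (SE, edgeR p = 0.0119, adjusted p = 0.227), also higher in 4 of 4 lines.

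Among members below 0 in cluster 5, Ptgs2 was at -5.61 ± 1.32 (SE, edgeR p = 0.00157, adjusted p = 0.0976). Ptgir was at -6.44 ± 1.58 (adjusted p = 0.111), Ptgfr at -6.13 ± 1.86 (adjusted p = 0.174) and Ptger4 at -3.47 ± 1.18 (adjusted p = 0.253). Ptgis was at -1.08 ± 0.25 (adjusted p = 0.0938), close to the median gene. Ptges was at -0.27 ± 0.88 (adjusted p = 0.956), which turned to 0.61 without Cspg4dsRED. The edgeR fit to sums by plate within a line called 5 members (and 4.52% of all genes), Ptgs1 higher and Ptgs2, Ptger4, Ptgfr and Ptgir lower. Without the low-count filter it called Ptgs2 (and 0.697%), and with at least 5 cells a line, which leaves out Cspg4dsRED, Ptgs1 (and 1.33%). With cells thinned to equal depth, 5 members (and 2.04% of all genes) were called, Ptgs1 and Ptger2 higher and Ptgs2, Ptgfr and Ptgir lower, and without the line as replicate block 2 (and 2.43% of all genes) were called, Ptgs1 (adjusted p = 0.0411) and Ptgir (adjusted p = 0.0282). Of 21 immediate-early genes tested, all 21 were below 0 in cluster 5 (median -2.21), and 2 were called lower, Nr4a1 at -4.25 ± 0.69 (adjusted p = 0.0145) and Dusp1 at -3.12 ± 0.58 (adjusted p = 0.0295). Markers of the urothelium, the cells next to this layer, summed to 23.98 in cluster 5 (0 to 92.1 over lines) and 13.8 in the other fibroblasts. The mural markers summed to 517.4 (325.2 to 747.0) and 78.2 (46.96 to 124.9). Acta2 alone was at 412.1 in cluster 5, 57.3 in the other fibroblasts and 4792 in cluster 10. Myh11 was at 35.3, 2.36 and 1831 in the same order. The study reports that sub-epithelial fibroblasts of the bladder themselves express Acta2. The part of urothelial or mural cells in these values was not tested.

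**Figure D5:**
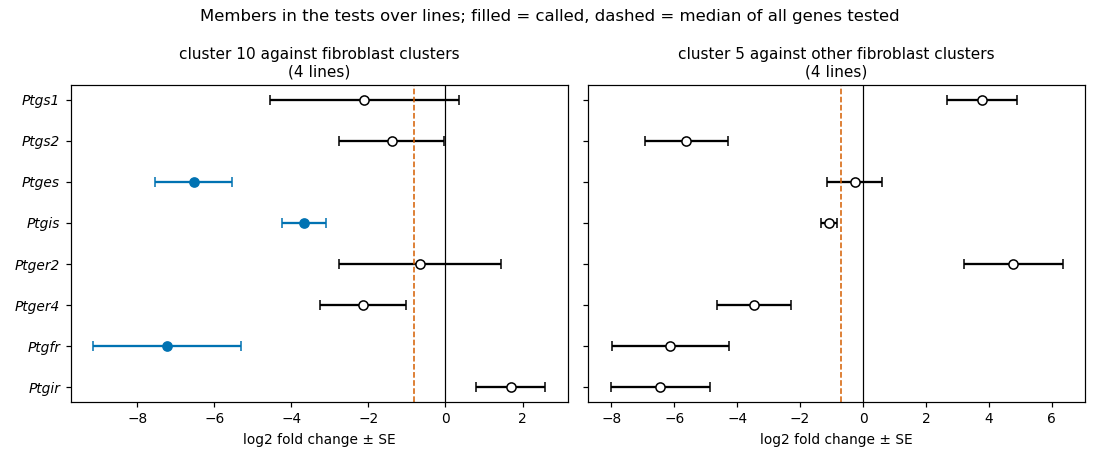
Log2 fold change with SE (horizontal axis) of the 8 members tested (vertical axis), for mural cluster 10 against fibroblasts (left) and cluster 5 against the other fibroblasts (right), 4 lines each. Filled points passed the test and the dashed line is the median of all genes. Ptges, Ptgis and Ptgfr lie at -6.54, -3.67 and -7.22 on the left, and on the right Ptgs1 and Ptger2 lie above 0 at 3.78 and 4.77 with no point filled.

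Each of the other 9 fibroblast clusters was compared with the remaining fibroblasts, with a log2 fold change of at least 1 required. Few genes passed at all. The share of genes tested was 0.746% in cluster 4, 0.471% in cluster 7 and 0.198% in cluster 2. It was 0.0284% in cluster 1, 0.00688% in cluster 3, 0.0147% in cluster 6 and 0.0217% in cluster 8. Clusters 9 and 11, which leaned on 1 line each, had 0.0454% and 0.0303%. Over the 9 comparisons, 2 calls were members. Ptges was higher in cluster 7 at 1.09 ± 0.16 (SE, edgeR adjusted p = 0.0315), in 5 of 5 lines. That call was lost without any 1 line, with adjusted p from 0.0814 without Cspg4dsRED to 0.162 without C57BL6 (0.0844 without Acta2GFP, 0.149 without PdgfraGFP, 0.0856 without PdgfrbGFP), and without the replicate block at 0.172. It was also lost with median-of-ratios scaling (adjusted p = 0.0503), without the low-count filter (adjusted p = 0.0250) and with plate sums (0.99, adjusted p = 0.00409), in the last 2 because the fold missed the minimum. Ptgis was lower in cluster 4 at -2.45 ± 0.56 (SE, edgeR adjusted p = 0.00259), on 2 lines and 21 cells. It was not called by DESeq2 (adjusted p = 0.479), nor without the block (0.314), nor with the median gene set to 0 (-1.38, adjusted p = 0.471). Cluster 4 also had the lowest summed fibroblast markers of the fibroblast clusters, 7945 ± 1480 (SD, n = 2), the next being cluster 9 at 11017. Its mesothelial markers summed to 0.627 in 1 line and 144.8 in the other. The part of either in the Ptgis value was not tested.

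Several members lay away from 0 without passing the test. In cluster 7, Ptgs1 was at 2.86 ± 0.76 (edgeR adjusted p = 0.212), higher in 4 of 5 lines, and Ptgs2 at -2.47 ± 0.77 (adjusted p = 0.321), lower in 4 of 5. Of 21 immediate-early genes tested in cluster 7, 18 were below 0 (median -0.94, against -0.33 for all genes) and 2 were called lower, Junb at -1.03 ± 0.12 (adjusted p = 0.0132) and Nr4a1 at -1.84 ± 0.30 (adjusted p = 0.0430), and their part in the Ptgs2 value was not tested. Ptger4 was at 1.57 ± 0.33 in cluster 3 (adjusted p = 0.414), higher in 4 of 4 lines, and at -2.08 ± 0.55 in cluster 7 (adjusted p = 0.212), lower in 5 of 5. Ptgir was at -5.15 ± 1.62 in cluster 7 (adjusted p = 0.331), lower in 5 of 5. DESeq2 called each of these 5 member differences, and with them 5.16% of all genes in cluster 7 and 1.29% in cluster 3. It also called Ptgir lower in cluster 1 (4.39% of all genes called) and cluster 2 (19.1%), and Ptgfr lower in clusters 2 and 3. The edgeR fit to plate sums called Ptgs1 higher in cluster 7 (2.02% of all genes called), and with the median gene set to 0 it called Ptgis higher in cluster 9 (1.33%). As the fibroblast clusters serve as one another's reference, these comparisons are not independent of each other.

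Other genes of the pathway were counted from a list of 35 with a row, covering arachidonic acid release, other synthases, breakdown and transport, other receptors and lipoxygenase-related enzymes. In mural cells 24 were tested, 2 were lower and 0 higher by edgeR, where 6.06% of all genes were lower. At unadjusted p under 0.05 there were 7, against 20.1% of all genes, and their median was -1.74 against -0.81 for all genes. Pla2g4a, the cytosolic phospholipase that releases arachidonic acid, was at -4.71 ± 1.11 (SE, adjusted p = 0.0128), with a level of 4.09 ± 3.45 (SD, n = 4) in cluster 10 and 61.6 to 118.8 in clusters 1, 2, 3, 5, 7, 8 and 11, and above these in cluster 6. Fibroblast clusters 9, at 26, and 4, at 6.88 and 14.5 in its 2 lines, were also low, and the spread of cluster 4 overlapped that of cluster 10. Ptgfrn, a membrane protein that binds tetraspanins and was named for inhibiting the prostaglandin F2-alpha receptor, was at -5.50 ± 1.38 (SE, adjusted p = 0.0194). The other prostaglandin E2 synthases did not pass. Ptges2 was at 1.71 ± 1.04 (SE, adjusted p = 0.406), with a level of 50.99 ± 55.8 (SD, n = 4) in cluster 10 and 12.8 ± 11.2 (SD, n = 5) in fibroblasts, and Ptges3 at -0.17 ± 0.82 (SE, adjusted p = 0.951). In cluster 5 edgeR called 0 of 24 (3 at unadjusted p under 0.05), and in the other 9 clusters none was called.

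Among reporter lines, values were compared over clusters 3, 6, 7 and 8, for the 4 lines with at least 3 cells in each. Cspg4dsRED, with 1 cell in cluster 3, was left out, and its Ptgs2 level was 0, 1.20 and 0 in clusters 6, 7 and 8. The Ptgs2 mean was 100.5 in Acta2GFP, 39.1 in C57BL6, 37.1 in PdgfraGFP and 53.2 in PdgfrbGFP, and the Ptges mean was highest in Acta2GFP, through its 9 cells of cluster 7, with 112.8, 107.5 and 148.8 in C57BL6, PdgfraGFP and PdgfrbGFP. Ptgs1 was 0 in Acta2GFP (63 cells), 6.03 in C57BL6, 5.38 in PdgfraGFP and 8.98 in PdgfrbGFP. With 1 value a line no test was possible. On the plate that held both Acta2GFP and PdgfrbGFP cells, Acta2GFP was higher for Ptgs2 in these 4 fibroblast clusters (228.3 against 23.6 in cluster 8, 88.3 against 29.9 in cluster 7, 48.3 against 31.8 in cluster 3 and 37.1 against 0 in cluster 6). In mural cluster 10 it was lower, with 0.437 against 53.2. For Ptges the values on that plate were 514.5 against 230.4 in cluster 7, 132.5 against 115.2 in cluster 3, 124.5 against 74.3 in cluster 8 and, the other way, 104.6 against 141.3 in cluster 6. For Ptgs1 it was 0 against 46.02 in cluster 7, where 3 of 22 PdgfrbGFP cells and 0 of 9 Acta2GFP cells had a read, and 9.33 against 0.245 in cluster 10, where 98.5% of the Acta2GFP level came from 1 cell. Elastase was used for this line only, and its part in these values cannot be told apart from the line.

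The patterns of the members were last compared with other genes over 35 groups of cluster and line with at least 5 cells, by Pearson's r of log2(level + 1) among 9812 genes outside the pathway list. The groups share lines and plates, so r is a description only. Ptgs1 was most like Frem1 (0.83), Dkk2 (0.81) and Cck (0.79), and Ptger2 was most like Tnfrsf19 (0.74), Parg (0.67) and Cck (0.67), so that Cck stood in both lists. Ptges was most like Rcn1 (0.90), Dkk3 (0.88) and Add3 (0.88), and Ptgis was most like Txndc5 (0.84), Pid1 (0.81) and Tubb6 (0.81). For Ptgs2 the nearest were C1qtnf3 (0.78), Plod2 (0.78) and Dpt (0.76), none of them on the immediate-early list.

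For Ptgir they were Heyl (0.87), Gem (0.76) and Junb (0.75), the last on the immediate-early list, whose sum was also highest in cluster 10, for Ptger4 Cd14 (0.65), Omd (0.64) and Tmem204 (0.62), and for Ptgfr Golm1 (0.73), Ppl (0.70) and Slc7a10 (0.68). Ptgds (Stra6 0.72, Itgb4 0.63, Kcnip3 0.60) and Ptger3 (Sema3f 0.65, Pigl 0.62, Aoc3 0.60) rested on few cells. Between members, r was -0.53 for Ptgs1 and Ptgs2, 0.53 for Ptgs1 and Ptger2, 0.68 for Ptges and Ptgis, and 0.55 for Ptger4 and Ptgir.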

How the data were processed

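Cells were sorted into multiwell plates, 1 cell a well, and sequenced by Smart-seq2 with 50-base single reads. The authors trimmed adapters, mapped reads to GRCm38 (mm10) with TopHat2 and Bowtie, and deposited whole-number counts per gene from featureCounts. The strand setting is not given in the sources used here. The 92 spike-in rows stayed out of library sizes and tests. Genes were filtered by filterByExpr, scaled by TMM and tested with edgeR 4.0.16 (R 4.3.3) on counts summed by line and class, with the line as a block, for lines with at least 3 cells in both classes. Benjamini-Hochberg adjustment ran over all genes tested. The lines (2 for clusters 4 and 9, 3 for cluster 11, 4 or 5 otherwise) pair the classes because both classes of a line come from the same sorted cells. The 1479 cells were 129 Acta2GFP, 190 C57BL6, 203 Cspg4dsRED, 147 PdgfraGFP and 810 PdgfrbGFP, with 125 in cluster 10 and 345 in cluster 3, the largest. The steps were tested on simulated data. Alternatives were median-of-ratios scaling, the median gene set to 0, DESeq2 1.42.0, no filter, no block, sums per plate and line, thinning, at least 5 cells, and leaving out each line. No 2 cells held identical counts. The members, the lists and the named genes (all 10 members, called pathway genes, and for each member the 3 genes most alike) were chosen with earlier results of these data known. Per-kilobase levels divide by exon length in GENCODE M21. Sequences came from RefSeq.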

Additional observations from a re-analysis of the deposited data

Results flagged for a closer look

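Among groups of 4 or 5 lines of a member in a cluster, 25 of 76 had a line far from the others. Many of these groups are 0 in most lines, and the value then comes from 1 or a few cells, so no chance rate is given.

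Values above the other lines in members other than Ptgds and Ptger3 were, for Acta2GFP, Ptges at 514.5 in cluster 7 and Ptgs2 at 88.3 in cluster 7 and 228.3 in cluster 8. In cluster 5 they were Ptgs2 at 4.62 in PdgfrbGFP and Ptger2 at 147.6 in C57BL6. Further ones were Ptgs1 at 15.8 in PdgfraGFP of cluster 8, Ptger4 at 137.7 in Cspg4dsRED of cluster 8, Ptgfr at 25 in PdgfraGFP of cluster 2 and at 0.631 in PdgfrbGFP of cluster 10, and Ptgir at 307.9 in C57BL6 of cluster 10.

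The Ptgs1 value in cluster 8 came wholly from 1 cell and the Ptgfr value in cluster 2 for 99.3% from 1 cell. For Ptger2 the far lines elsewhere were Acta2GFP at 27.8 in cluster 6 and 17.04 in cluster 8, and PdgfrbGFP at 1.45 in cluster 1 and 1.41 in cluster 3. For Ptgds they were PdgfrbGFP at 0.0457 in cluster 1, 0.0414 in cluster 3, 0.0290 in cluster 5 and 2.46 in cluster 8, and Acta2GFP at 4.25 in cluster 7. For Ptger3 they were Acta2GFP at 16.8 in cluster 10, C57BL6 at 0.0238 in cluster 3 and 12.05 in cluster 8, and PdgfrbGFP at 0.0745 in cluster 2, 1.76 in cluster 5 and 0.827 in cluster 6.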

How the results depend on the processing

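Counts of genes called are given relative to the count reported. For cluster 10 (1156 genes) DESeq2 called 2.50 times as many, and leaving out a line gave 0.38 (without Cspg4dsRED) to 0.77 (without C57BL6). For cluster 5 DESeq2 called 10.97 times as many, no filter 1.62, no replicate block 2.76, sums per plate and line 5.05, thinned cells 1.98, at least 5 cells 1.57, and leaving out a line 0.71 (without PdgfraGFP) to 1.57 (without Cspg4dsRED). Over the other 9 comparisons together the median gene at 0 gave 6.20 times as many, DESeq2 24.92, no replicate block 1.84, plate sums 10.93 (8 comparisons) and leaving out a line 0.20 to 0.66. Clusters 4 and 9 could not be fitted with a line left out. Ptger2 in cluster 10 changed sign to 0.17 (median gene at 0), 2.05 (no block), 0.80 (at least 5 cells), and lay between -2.69 and 0.80 with a line left out. Ptges in cluster 5 changed sign to 0.42 (median gene at 0), 0.22 (no block), 0.91 (plate sums) and 0.61 (at least 5 cells), and lay between -0.89 and 0.61 with a line left out. The cause was not tested. Of 447 alternative values of members, 378 kept direction and side of the threshold, 33 passed it newly, 18 no longer did, 10 changed sign, and 8 shares or levels moved. Low reads limit Ptgds, Ptger3 and Ptger2.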

Other observations

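Pathway genes outside the 10 members also differed in level between clusters, and the 2 described here were chosen after their values were seen. Tbxa2r, the receptor for thromboxane, which contracts vascular smooth muscle, had its highest level in mural cluster 10, at 67.9 ± 45.04 (SD, n = 4; 16.2 to 115.6 over lines), and its lowest in cluster 5, at 0.136 ± 0.162 (SD, n = 4). Its log2 fold change was 2.25 ± 0.97 in cluster 10 (SE, n = 4 lines, each of them higher; edgeR adjusted p = 0.187) and -6.43 ± 1.69 in cluster 5 (adjusted p = 0.134), so that neither passed.

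Abcc4, a transporter that exports prostaglandin E2 among other anions, had its highest level in cluster 5, at 81.9 ± 88.6 (SD, n = 4; 0 to 204.4), against 17.9 ± 6.04 (SD, n = 4) in cluster 3, the next. At 2.07 ± 1.16 it did not pass (edgeR adjusted p = 0.631; higher in 3 of 4 lines). Of the 41 Ptgs1 cells of cluster 5, 21 (51.2%) had Abcc4 reads at the same cutoff, against 40.8% of all cells of the cluster.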
